A study of Mus musculus with 2 samples.

Results

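The cyclin-dependent kinase inhibitors Cdkn1a, Cdkn1b, Cdkn1c, Cdkn2a, Cdkn2b and Cdkn2c, the D cyclins Ccnd1, Ccnd2 and Ccnd3, and the retinoblastoma gene Rb1 were examined in mouse glomeruli, the filtering units of the kidney. Every probe set (a group of short array probes for 1 transcript) whose platform gene symbol was exactly one of these 10 symbols was taken, which gave 23 of the 45037 probe sets that are not array controls, and 10 of 18193 genes. The donors were male KK/Ta mice at 20 weeks of age, fed a high-fat diet (HFD, 1 array) or a normal fat chow diet (Chow, 1 array). KK/Ta is an inbred line known for spontaneous obesity and diabetes of the insulin-resistant kind. The RNA was hybridised to Affymetrix Mouse Genome 430 2.0 arrays. Both groups carry this background, so no non-diabetic strain stands beside them. The number 3 is given for the mice in the design text, without saying if it counts animals per diet or if RNA was pooled. A single array per diet allows no replicate check, so no p-value or error is given, and a difference below is one between these 2 RNA preparations.

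A cell leaves rest when D cyclins switch on the kinases Cdk4 and Cdk6, which with Cdk2 phosphorylate the retinoblastoma protein and release E2F transcription factors from it. The Cip/Kip inhibitors p21 (Cdkn1a), p27 (Cdkn1b) and p57 (Cdkn1c) bind cyclin and kinase complexes, chiefly those of Cdk2, whereas the INK4 inhibitors p16 (from Cdkn2a), p15 (Cdkn2b) and p18 (Cdkn2c) bind Cdk4 and Cdk6. Mature podocytes, the epithelial cells that cover the glomerular capillaries, rarely divide and are known for p27 and p57 protein, and p21 and p27 have been studied in the glomerular hypertrophy of diabetes.

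Cdkn1a and Cdkn2c had the largest positive differences among these genes, and the upstream sequences of both are shown for that reason alone. Each is the 250 bases before a transcription start in RefSeq (build GRCm38.p6), read 5′ to 3′ on the gene's strand, the plus strand for Cdkn1a and the minus strand for Cdkn2c. Capitals in the first Cdkn1a sequence mark an exact match to the p53 response element consensus (2 half-sites of 10 bases with 0 to 13 bases between them). Its half-sites, GGACTAGCTT and GAACATGTCT, have other bases between them. The 10 bases directly after it, tgacatgttc, differ from a half-site only in their opening letter and were therefore left in lower case. Which of these half-sites p53 would use was not tested. Capitals in the other sequences mark GC boxes (GGGCGG on either strand), the letters bound by Sp1 family factors.
Cdkn1a, first start, chr17:29090729-29090978: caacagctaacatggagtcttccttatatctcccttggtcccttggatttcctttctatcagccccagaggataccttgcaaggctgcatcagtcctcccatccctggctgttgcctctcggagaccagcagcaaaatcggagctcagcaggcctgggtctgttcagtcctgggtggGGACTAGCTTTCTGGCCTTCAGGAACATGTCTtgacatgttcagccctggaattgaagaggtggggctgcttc
Cdkn1a, second start, chr17:29093519-29093768: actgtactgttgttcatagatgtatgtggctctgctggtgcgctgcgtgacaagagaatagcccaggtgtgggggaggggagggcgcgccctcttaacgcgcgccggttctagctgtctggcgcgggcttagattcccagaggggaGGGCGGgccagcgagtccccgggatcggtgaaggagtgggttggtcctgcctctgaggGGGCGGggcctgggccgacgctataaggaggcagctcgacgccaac
Cdkn2c, first start, chr4:109666757-109667006: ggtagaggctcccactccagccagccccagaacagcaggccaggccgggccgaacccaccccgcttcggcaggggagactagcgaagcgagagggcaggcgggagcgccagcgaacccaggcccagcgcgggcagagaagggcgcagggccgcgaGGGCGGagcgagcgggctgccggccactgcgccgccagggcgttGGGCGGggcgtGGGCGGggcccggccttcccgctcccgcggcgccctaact
Cdkn2c, second start, chr4:109665373-109665622: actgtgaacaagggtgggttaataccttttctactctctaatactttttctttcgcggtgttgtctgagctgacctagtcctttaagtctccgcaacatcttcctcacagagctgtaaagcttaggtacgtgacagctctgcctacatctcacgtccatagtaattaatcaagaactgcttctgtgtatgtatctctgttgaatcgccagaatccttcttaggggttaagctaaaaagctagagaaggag
The exact p53 match, chosen as a motif because Cdkn1a is a textbook p53 target, began 73 bases before the first Cdkn1a start. The adjoining pair GAACATGTCT and tgacatgttc, inexact in its second part, begins nearer to that start and was not counted. The second Cdkn1a start had GC boxes 104 and 46 bases upstream, and the first Cdkn2c start had them 95, 51 and 40 bases upstream. The Cdkn2c sequences differed in base composition, with 77.2% G and C at the first start and 42.8% at the second, and the Cdkn1a sequences had 54.0% at the first and 64.8% at the second.

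RefSeq windows of 300 bases around a start (250 before and 50 after) were at hand for 6 of the 10 genes, namely Cdkn1a, Cdkn1b, Cdkn2a, Cdkn2b, Cdkn2c and Ccnd3, and gave 10 windows. A GC box lay in 8 of these 10 windows, and in 35.7% of all 32851 windows in the table. CCAAT lay in 4 of the 10, against 37.4% of all windows. The p53 element, counted by exact matches only, lay in 1 of the 10, that of the first Cdkn1a start, against 0.0731% of all. Since the motif was chosen for Cdkn1a, this share does not measure enrichment. An E2F motif (TTTCCCGC, TTTGGCGC, TTTGCCGC or TTTCGCGC) lay in 1 of the 10, upstream of the outer Cdkn2a start, against 2.26% of all. The E-box CACGTG lay in 1, against 7.15%, and TATAAA in 0, against 13.6%. Both strands were searched, and no marked match overlapped another in the sequences printed. These matches describe letters and do not show that a factor binds there.

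The deposited values are linear signals in arbitrary units. Each array was centred on its median (a signal of 42.3 for HFD and 44.9 for Chow), which raised HFD minus Chow log2 differences by 0.083, and that median also served as a floor under which signals were not interpreted. Of the 23 probe sets, 19 were above the floor on both arrays (82.6%, whereas 58.1% of all probe sets named by 1 gene exceeded it on 1 array or both) and 4 were under it on both. These 19 covered 9 of the 10 genes, where 11364 of all 18193 genes had a probe set above the floor on 1 array or both. A 2-fold difference was reached by 0 of the 19 and by 0.792% of the 20317 such named probe sets. A rise of 1.5-fold or more was seen in 2 of the 19, against 3.78% of all, and a fall of that size in 0, against 1.97%. Positive differences numbered 12 of 19, against 58.7% of all. The median difference was 0.059 log2 units over the 19, close to 0.049 over all 20317. Signals of different probe sets depend on their own probes, so they do not order the genes by transcript number.

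**Figure D1:**
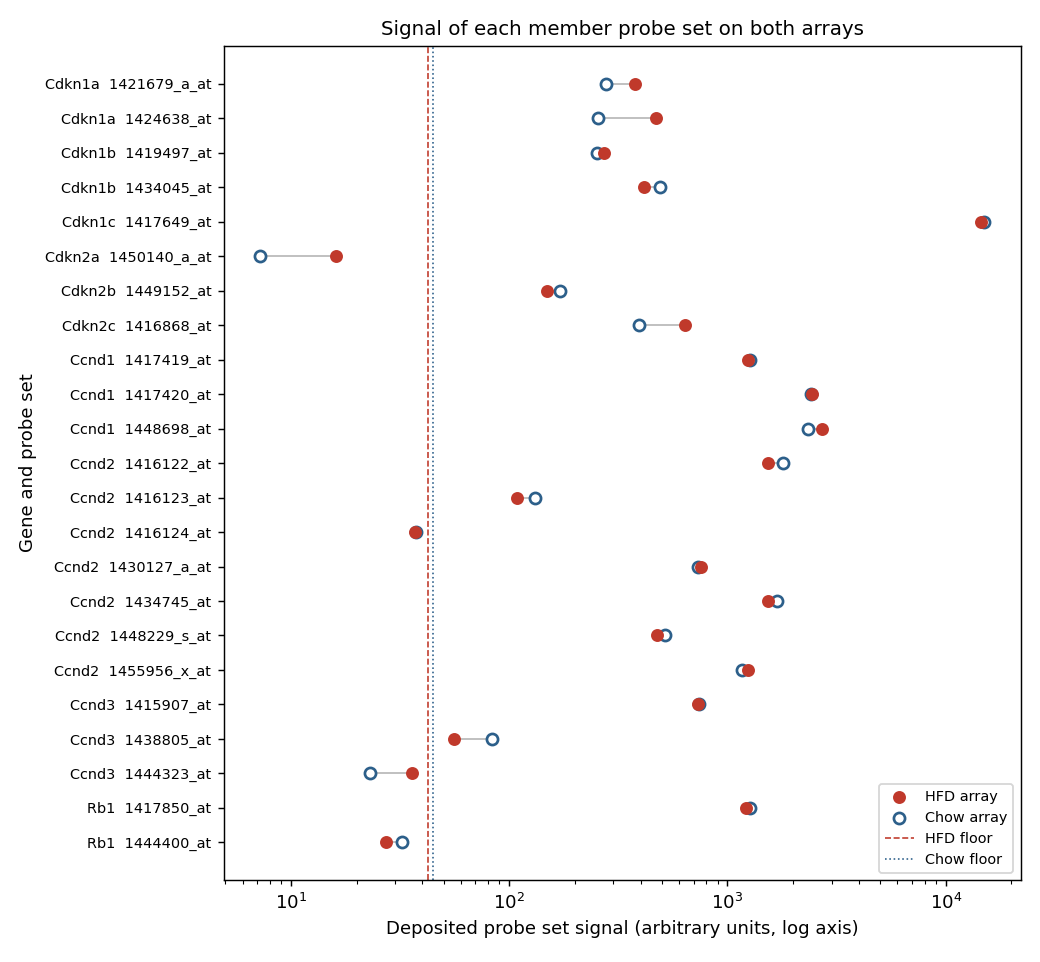
Deposited signal (arbitrary units, log axis) of the 23 probe sets, 1 row each, for HFD (filled red) and Chow (open blue), with each array's floor as a vertical line (42.3 for HFD, 44.9 for Chow). Cdkn1c stands far to the right (14522 in HFD, 15025 in Chow), Cdkn2a lies left of both floors, and the pairs of Cdkn1a and Cdkn2c lie apart with HFD to the right.

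Among the Cip/Kip genes, Cdkn1c gave a signal near the top of the whole array. Its 1 probe set, 1417649_at, read 14522 with HFD and 15025 with Chow, the 26th and the 18th brightest of the 45037 probe sets. The centred difference was 0.034 log2 units, so the p57 signal was high in both diets and nearly equal between them. The brightest probe sets read 19489 in HFD and 19853 in Chow. Whether signals this close to the top still follow RNA amount evenly was not tested.

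Cdkn1a, encoding p21, the p53-induced inhibitor that halts cells after DNA damage, was higher in HFD in both of its probe sets. Probe set 1424638_at read 471 in HFD and 254 in Chow, a centred difference of 0.97 (1.97-fold, just under the 2-fold mark). Probe set 1421679_a_at read 376 in HFD and 277 in Chow, a difference of 0.53 (1.44-fold, just under the 1.5-fold mark). Both probe sets thus went the same way, with sizes that differed by 0.45 log2 units for the same RNA. For comparison, the central 95% of the 1000 probe sets nearest in signal ran from -0.47 to 0.57 around 1424638_at and from -0.45 to 0.56 around 1421679_a_at. The first therefore lay outside that range and the second within it.

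Cdkn1b, encoding p27, which holds cells at rest, had probe sets that went opposite ways. Probe set 1434045_at read 414 in HFD and 488 in Chow (-0.16), while 1419497_at read 272 in HFD and 253 in Chow (0.19). These are sizes of 1.11-fold and 1.14-fold, and no direction can be given for this gene.

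The INK4 genes held 1 difference past 1.5-fold, 1 small one and 1 signal too low to read. Cdkn2c, encoding p18, read 635 in HFD and 393 in Chow in its single probe set 1416868_at, a centred difference of 0.78 (1.71-fold higher). The central 95% of probe sets nearest in signal ran from -0.46 to 0.49, so this value lay outside it, and no second probe set was there to compare. Cdkn2b, encoding p15, an inhibitor induced by TGF-beta, read 149 in HFD and 171 in Chow (-0.11). Cdkn2a, whose locus encodes p16 and, in another reading frame, the p53 stabiliser Arf, read 16.0 in HFD and 7.22 in Chow. Both Cdkn2a values were under the floor, at 0.378 and 0.161 times the array median, so no difference is drawn from them. The probe set does not tell which of the 2 products it would follow.

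**Figure D2:**
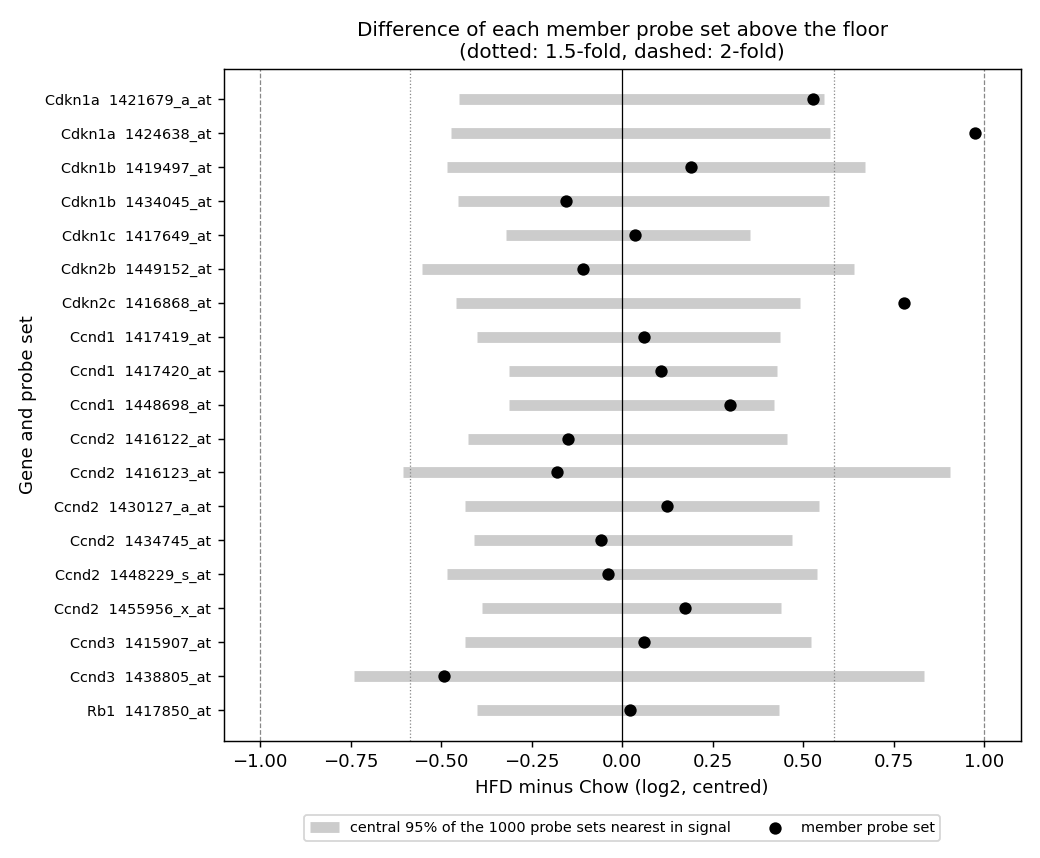
Centred HFD minus Chow log2 difference (points) of the 19 probe sets above the floor, 1 row each, over the central 95% of differences of the 1000 probe sets nearest in signal (grey bars). Vertical lines mark 1.5-fold (dotted) and 2-fold (dashed). Cdkn1a 1424638_at (0.97) and Cdkn2c (0.78) lie to the right of their bars, and the other 17 points lie on theirs.

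D cyclins, the mitogen-sensing partners of Cdk4 and Cdk6, had 11 of 13 probe sets above the floor, and all 11 differed by less than 1.5-fold. Cyclin D1 (Ccnd1) was bright in its 3 probe sets, and each stood slightly higher in HFD after centring. Probe set 1448698_at read 2706 in HFD and 2331 in Chow (0.30), 1417420_at read 2442 in HFD and 2402 in Chow (0.11), and 1417419_at read 1243 in HFD and 1264 in Chow (0.059). The smallest of these turns to -0.024 without centring, so a common direction of the 3 depends on that step.

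Cyclin D2 (Ccnd2) was followed by 7 probe sets, of which 6 were above the floor, 2 with a positive and 4 with a negative difference. The brightest, 1434745_at and 1416122_at, read 1532 and 1526 in HFD against 1692 and 1793 in Chow, with differences of -0.059 and -0.15. On the other side, 1455956_x_at read 1243 in HFD and 1167 in Chow (0.17) and 1430127_a_at read 755 in HFD and 733 in Chow (0.12). Probe sets 1448229_s_at (474 in HFD, 516 in Chow) and 1416123_at (109 in HFD, 131 in Chow) differed by -0.038 and -0.18, and 1416124_at was under the floor at 36.8 in HFD and 37.4 in Chow. The range over the 6 was 0.36 log2 units around a median of -0.048. Signals of the 7 probe sets for this 1 gene thus ran from 36.8 to 1532 on the HFD array alone. The cause of this spread was not tested.

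Cyclin D3 (Ccnd3) gave 1 bright probe set, 1415907_at, with 732 in HFD and 744 in Chow (0.060). A second, 1438805_at, was near the floor with 55.8 in HFD and 83.3 in Chow (-0.49, 1.41-fold lower). That value lay within the wide range of its like-signal neighbours (-0.74 to 0.83). The third, 1444323_at, was under the floor with 36.0 in HFD and 23.1 in Chow. Rb1, whose product is the main target of the D cyclin kinases, read 1222 in HFD and 1274 in Chow in 1417850_at (0.023). Its second probe set, 1444400_at, was under the floor at 27.3 in HFD and 32.3 in Chow.

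Other genes of this pathway were taken in 4 lists of 48 genes, of which 46 had a probe set named by that gene alone. Their 67 probe sets above the floor held 0 with a rise of 1.5-fold or more, against 3.78% of all, and 1 with such a fall, against 1.97%. The median over the 67 was 0.029 log2 units, against 0.049 over all probe sets. The 1 was Ccne2, a cyclin E that activates Cdk2 late in G1, which read 45.5 in HFD and 72.9 in Chow, close to the floor (-0.60, 1.51-fold lower).

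Among the G1 kinases, Cdk2 read 149 in HFD and 108 in Chow (0.55), and Cdk4 read 1114 in HFD and 931 in Chow in its brightest probe set (0.34), with 0.097 and 0.15 in its others. Ccne1, the other cyclin E, differed by -0.17. Cdk6 differed by -0.0033 and -0.13 in its probe sets above the floor, and Cdkn2d, the INK4 gene of p19, by 0.084. In the list of pocket proteins and E2F factors, the largest differences by brightest probe set were those of E2f5, a repressive E2F (2749 in HFD, 3677 in Chow, -0.34), and E2f1, an activating one (473 in HFD, 605 in Chow, -0.27). Further E2f5 probe sets differed by -0.44 and 0.054, and a second E2f1 probe set went the other way (396 in HFD, 283 in Chow, 0.57). E2f4 and the Rb1 relative Rbl1 differed by -0.25 and -0.11. The list had 10 probe sets with positive and 6 with negative differences.

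The list of regulators, chosen mainly for the inhibitors and D cyclins, had 10 probe sets with positive and 12 with negative differences, and a median of -0.019. Its largest differences were in dim probe sets of Cks1b (59.6 in HFD, 46.9 in Chow, 0.43) and Skp2 (58.1 in HFD, 48.3 in Chow, 0.35). In their brightest probe sets Cks1b differed by -0.17 and Skp2 by 0.0445, and further Skp2 probe sets by -0.028 and -0.14. By brightest probe set the largest differences were those of Cdc25a, Foxo3, Cbx7 and Ezh2. The phosphatase gene Cdc25a, which activates Cdk2, differed by 0.25 in its brightest probe set and by -0.055 in a second, and the Polycomb genes Cbx7 and Ezh2, known repressors of the Cdkn2a locus, by 0.20 and -0.18. Foxo3, a transcription factor that induces Cdkn1b, differed by -0.20 in its brightest probe set and by 0.029 in a second, and another was above the floor in HFD only (49.7 in HFD, 7.66 in Chow, a bound of 0.23). Mdm2, a p53 target like Cdkn1a, read 561 in HFD and 640 in Chow in its brightest probe set (-0.11) and 265 in HFD and 254 in Chow in a second (0.14).

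Genes of S phase to mitosis were read beside these, since their transcripts mark dividing cells. Of 17 such genes with a probe set, 14 (82.4%) were above the floor by their brightest one. The same held for 11360 of all 18193 genes (62.4%). By probe set, 20 of the list's 34 were above the floor (58.8%), close to the 58.1% of all probe sets named by 1 gene. The higher share by gene was thus not seen by probe set, and these shares were not tested against each other. Mki67, the gene of the proliferation antigen Ki-67, read 198 in HFD and 190 in Chow, and Cdk1, the mitotic kinase, 135 in HFD and 161 in Chow. Pcna, the DNA polymerase clamp that also serves repair, was bright at 3385 in HFD and 3041 in Chow (0.24). Plk1, Tyms and Bub1 were under the floor on both arrays. Mcm6, a subunit of the replicative helicase, differed by 0.44 in its brightest probe set, but a second read 63.3 in HFD and 67.3 in Chow (-0.0050). Top2a, a topoisomerase of dividing cells, differed by -0.41 in the 1 of its probe sets above the floor. Birc5, encoding survivin, was above the floor in Chow only, at 38.4 in HFD and 60.4 in Chow (at least 1.35-fold lower). Over the 20 probe sets of this list above the floor the median was 0.13, with 11 positive and 9 negative.

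**Figure D3:**
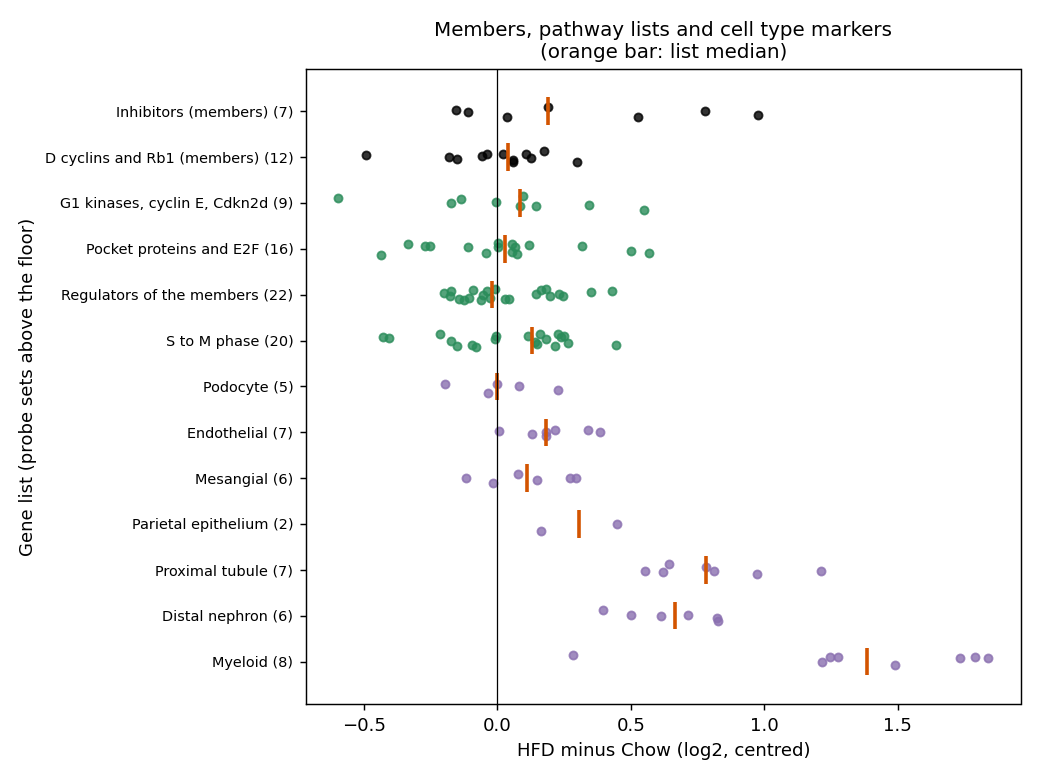
Centred HFD minus Chow log2 difference of probe sets above the floor (points) in the inhibitors, the D cyclins with Rb1, 4 pathway lists and 7 marker lists, with list medians as orange bars and the number of probe sets in brackets. Inhibitors run from -0.16 to 0.97, the pathway lists from -0.60 to 0.57, and every point of the endothelial, parietal epithelial, proximal tubule, distal nephron and myeloid lists lies to the right of 0, the endothelial ones between 0.0063 and 0.39.

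RNA from other kidney cells differed between the arrays in the same direction as Cdkn1a and Cdkn2c. The marker lists were chosen with earlier results of these data known, so their counts are no independent support. Not every marker is limited to the cells its list is named for. Ptprc, Itgb2 and Cd74 of the myeloid list are also carried by other leukocytes, and Pax8 of the parietal list by tubule cells. Of all 20317 named probe sets above the floor, 58.7% were higher in HFD and 0.792% differed by 2-fold in either direction. By the brightest probe set of each gene, 7 of 7 markers of the myeloid list were higher in HFD by at least 2-fold. Their summed signals were 2758 in HFD and 1000.4 in Chow, with a median difference of 1.49. All 5 proximal tubule markers were higher (8716 in HFD, 5298 in Chow, median 0.78), as were all 5 of the distal nephron (7960 in HFD, 5575 in Chow, median 0.71). The 4 podocyte markers with a probe set summed to 34356 in HFD and 36737 in Chow (median -0.019), the 5 endothelial markers to 35993 and 33944 (0.18), the 4 mesangial markers to 18478 and 18837 (0.030) and the 2 parietal epithelial markers to 412 and 330.0 (0.31). Each of these markers exceeded the floor in HFD, and of all of them Cd68 alone was under it in Chow. The part of these cells in the Cdkn1a and Cdkn2c differences was not tested. In such bulk RNA, fewer cells of a type and less RNA per cell cannot be told apart. Control probe sets of Gapdh and beta-actin differed by 0.14 to 0.28 after centring, a size that all D cyclin and Rb1 values other than Ccnd1 1448698_at (0.30) and Ccnd3 1438805_at (-0.49) did not exceed.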

How the data were processed

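The authors deposited linear intensities, not logged, for 45101 probe sets, of which 64 are controls and were left out. RNA was isolated on Qiagen RNeasy columns and labelled by the two-cycle Affymetrix protocol, per the labels' protocols, and GeneSpring 7.3.1 is the analysis software in the design text. Probe summarisation and scaling are not given in the sources used here.

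After a log2 transform, the median of the 45037 probe sets was subtracted within each array. Values under the 50th percentile were raised to it. Genes came from the 2016 platform annotation: 34945 probe sets named 1 gene, 932 several, and 9160 were unnamed here. Sizes of 1.5-fold and 2-fold served as counting rules, and no test was run, since each diet has 1 array, whose number limits the precision. Likeness in signal was taken over the 1000 probe sets nearest in mean log2 signal, among named ones above the floor on both arrays. Ranges near the floor are therefore those of a selected set. With 2 arrays a pattern is 1 difference, so no genes of like pattern are named. All probe sets of the 10 genes are named, and of each pathway list the 4 genes with the largest difference by brightest probe set and any probe set past 1.5-fold. Cdk6, Cdkn2d, Mdm2, Cks1b, Skp2, Mki67, Cdk1, Plk1, Tyms, Bub1, Cd68 and the further probe sets of E2f1, E2f5, Cdk4, Cdc25a, Foxo3 and Mcm6 were named after their values were seen. Genes and lists were chosen with earlier results of these data known. The motifs were chosen with the promoter sequences in view.

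Simulated data for HFD against Chow were used to check the steps, with 45037 probe sets and changes placed in the brighter part of those above the floor on both arrays: of 50 probe sets changed 1.5-fold, 50.0% were called at 1.5-fold, and of 50 changed 2-fold, 66.0% at 2-fold and 98.0% at 1.5-fold. Noise was drawn from a normal distribution with the spread of the observed HFD minus Chow differences, so variation between mice was not simulated apart from other sources. A change placed at a cutoff falls on either side of it by noise, so shares at the same fold say little about the steps. Python 3.11.15, numpy 2.4.6, pandas 2.3.3 and statsmodels 0.14.6 were used.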

Additional observations from a re-analysis of the deposited data

How the results depend on the processing

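Results were recomputed with quantile or loess (span 0.3) normalization, without centring, with the floor moved to the 30th or the 70th percentile or removed, with the 25th percentile added in its place, and without probe sets whose suffix (_s_at, _x_at, _a_at) marks several transcripts. Under them Cdkn1a 1424638_at ran from 0.89 to 0.97, Cdkn1a 1421679_a_at from 0.44 to 0.53 and Cdkn2c from 0.69 to 0.78. Neither of the 2 probe sets past 1.5-fold changed direction. Without centring 4 of 19 changed sign (those of Cdkn1c and Rb1, Ccnd1 1417419_at and Ccnd3 1415907_at), and 2 of 19 did under each of the quantile and loess fits. The median over the probe sets ran from -0.024 without centring to 0.084 with the 70th percentile floor. Without a floor, which brings in the dim Cdkn2a and Ccnd3 values, 4 probe sets passed 1.5-fold and 1 passed 2-fold, where 29.3% and 18.2% of all named probe sets did. Pathway probe sets past 1.5-fold numbered 4 of 86 with the 30th percentile floor (13.6% of all named probe sets passed), 0 of 36 with the 70th (2.47% of all), 21 of 103 with no floor (29.3%) and 10 of 103 with the 25th percentile added (14.8%). Low signals, with no detection calls, limit what can be read for Cdkn2a and the dim probe sets of Ccnd2, Ccnd3 and Rb1. No paired analysis was possible because each diet has 1 array.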
